A study of Mus musculus and Homo sapiens with 19 samples.

Results

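Vegfa, Vegfb, Vegfc, Pgf, Nrp1, Nrp2, Angpt2, Efnb2 and Ephb4 encode secreted angiogenic factors, their neuropilin co-receptors and an ephrin with its receptor. The members were chosen by gene symbol, and all 9 were present in each table: among 24421 genes in the knockdown table, 57992 in the human table and 55573 in the co-culture tables. The knockdown compared 3 libraries of 4T1 cells, a mouse mammary tumour line, carrying a scramble shRNA in pLKO.1 (shSCR) with 3 carrying a Phgdh shRNA in the same vector (shPHGDH); the labels name no second hairpin. The human experiment compared 3 control libraries of the human breast cancer line MDA-MB-231 with 3 libraries labelled as transduced with PHGDH cDNA in pLHCX. The co-culture set paired tumour with endothelial cells, with 1 library per culture and cell type. In it 4T1, EMT6.5 (a mouse mammary tumour line) and Bend3 (a transformed mouse brain endothelial line) were grown alone, and each tumour line was also grown with Bend3 and both partners separated by FACS. The labels do not say that replicates were separate cultures, so p-values measure the spread between libraries, which may be technical.

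VEGF-A is the main growth factor for blood endothelium and signals through the receptor KDR. VEGF-B and PlGF (from Pgf) bind FLT1, and VEGF-C acts mainly on lymphatic endothelium through FLT4. The neuropilins NRP1 and NRP2 are co-receptors that bind VEGFs as well as class 3 semaphorins, and in tumours they are found on cancer cells as well as on vessels. Angiopoietin 2 (Angpt2) modulates the endothelial receptor TIE2. Ephrin-B2 (Efnb2), a membrane ligand typical of arteries, and its receptor EphB4 (Ephb4), typical of veins, signal between touching cells.

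Promoter sequence was available for 8 of the 9 genes, in the RefSeq table for GRCm38.p6; Angpt2 had no entry. The 250 bases before the annotated start are shown for 3 genes on which the results turn: Vegfa, which changed in both replicated experiments, and Pgf and Ephb4, which were higher in both Bend3 co-cultures. Each is written 5′ to 3′ on the gene's strand, at chr17:46032378-46032627 (minus strand), chr12:85177314-85177563 (minus) and chr5:137349859-137350108 (plus). For Vegfa and Pgf, which had 2 entries each, the first listed is shown. Capitals mark GGGCGG, the core of the GC box bound by Sp1, or its complement.
Vegfa: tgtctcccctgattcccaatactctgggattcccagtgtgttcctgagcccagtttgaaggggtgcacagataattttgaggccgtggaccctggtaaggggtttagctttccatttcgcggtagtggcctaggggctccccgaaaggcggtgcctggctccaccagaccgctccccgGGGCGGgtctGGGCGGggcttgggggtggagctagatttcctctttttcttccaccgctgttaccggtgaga
Pgf: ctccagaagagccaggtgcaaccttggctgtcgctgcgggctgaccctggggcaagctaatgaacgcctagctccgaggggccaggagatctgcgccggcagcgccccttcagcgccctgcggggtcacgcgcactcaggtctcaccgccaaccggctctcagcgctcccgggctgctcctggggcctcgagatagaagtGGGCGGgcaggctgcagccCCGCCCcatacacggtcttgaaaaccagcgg
Ephb4: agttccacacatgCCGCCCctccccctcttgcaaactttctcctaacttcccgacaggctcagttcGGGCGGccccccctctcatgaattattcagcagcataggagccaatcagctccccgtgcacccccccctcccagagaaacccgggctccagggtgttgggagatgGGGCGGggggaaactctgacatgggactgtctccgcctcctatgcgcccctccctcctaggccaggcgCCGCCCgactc
The GGGCGG letters, searched on both strands, occurred in the first-listed promoter of 8 of 8 genes and in 32.7% of the 32851 mouse promoter windows of this length. The letters ACGTG or GCGTG, the core of the hypoxia response element bound by HIF, occurred in 4 of 8 (Vegfb, Pgf, Nrp1 and Nrp2), against 38.6% of all windows. In Vegfa they occurred in the window of its other entry (chr17:46025164-46025413) and not in the first-listed one. That other window lies inside the GENCODE span of Vegfa given below. The first-listed windows of Pgf and Nrp1 likewise lie inside the spans of their genes, and that of Nrp2 overlaps the start of its gene. TGGGAA, a core of the RBPJ site, occurred in Vegfa only (21.6% of all windows), TATAAA in Efnb2 only (12.4%) and the AP-1 letters TGANTCA in 0 of 8 (6.75%). No match in these windows overlapped a match of another motif, and a match describes letters only.

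Gene counts per library were 12.697 to 20.512 M in the knockdown, 19.515 to 23.766 M in MDA-MB-231 and 4.268 to 7.673 M in co-culture. Levels are given as CPM, counts per 1 M after TMM scaling. The shRNA target Phgdh was at 167.3, 172.5 and 163.4 CPM in shSCR and at 20.72, 20.21 and 21.68 in shPHGDH. In MDA-MB-231, PHGDH ran against the label: the controls held 15.49, 15.65 and 18.28 CPM, and those labelled PHGDH-overexpressing held 5.987, 4.533 and 5.715 (log2 fold change -1.61, adjusted p = 5.76e-10, edgeR), so directions there are those of the labels. Of the markers of each line, the endothelial list of 12 genes summed to 10360 to 13050 CPM in Bend3 and to 98.94 to 222.7 in the tumour libraries of the same set. EMT6.5 had keratins (Krt18 at 384.3 CPM alone) but Epcam and Cdh1 at 0.246 and 0.123 CPM, Cldn7 and Esrp1 at 0, and Col1a1 at 1335 CPM, so 6 of the 10 epithelial markers, the 5 keratins and Cldn4, were at 1 CPM or more alone and 4 with Bend3. Bend3 had Cd68, a macrophage-associated gene, at 235.3 to 429.3 CPM, while Ptprc was at 0 in all 3 of its libraries. Genes are described in bulk RNA, in which fewer cells of a type and less RNA per cell cannot be told apart.

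In the 4T1 knockdown the ligand Vegfa rose 1.995-fold, the co-receptor Nrp1 fell 1.72-fold and the other co-receptor Nrp2 rose 1.28-fold. Vegfa was at 22.98, 20.87 and 22.93 CPM in shSCR and at 43.15, 47.25 and 43.30 in shPHGDH. All 3 shPHGDH libraries lay above all 3 shSCR libraries, with a log2 fold change of 0.997 (SE 0.062, adjusted p = 1.01e-13, edgeR's quasi-likelihood test with Benjamini-Hochberg adjustment). Nrp1 was at 231.2, 223.0 and 235.1 CPM in shSCR and at 133.4, 132.3 and 134.8 in shPHGDH. The groups did not overlap, and Nrp1 was lower by 1.72-fold (log2 -0.78, SE 0.032, adjusted p = 1.09e-17). Nrp2 was at 441.4, 448.5 and 446.8 CPM in shSCR and at 566.8, 564.0 and 575.6 in shPHGDH. The groups were again apart, at a smaller size (log2 0.35, SE 0.022, adjusted p = 1.26e-13). Per kb of exon, the ratio of Nrp2 to Nrp1 within a library was 1.57 to 1.66 in shSCR and 3.51 to 3.53 in shPHGDH.

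**Figure D1:**
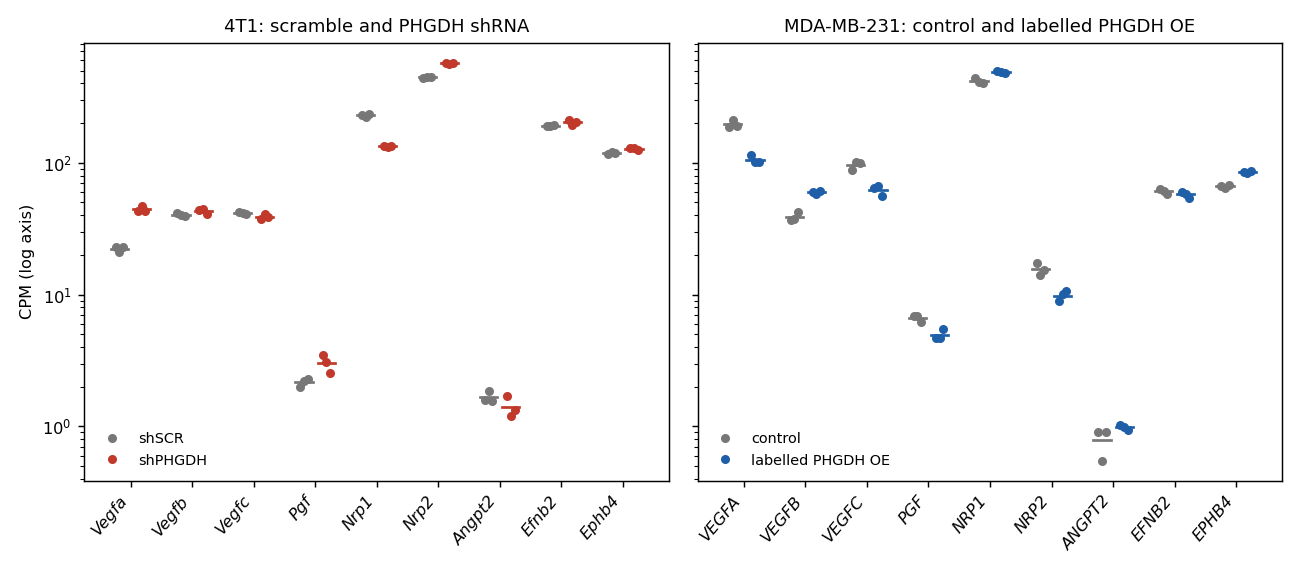
CPM on a log axis of the 9 genes in each library of the 4T1 knockdown (left) and of MDA-MB-231 (right). Points are libraries and bars are group means of 3; Vegfa sits higher in shPHGDH (43.15 to 47.25) than in shSCR (20.87 to 22.98), and VEGFA sits lower in the libraries labelled PHGDH-overexpressing (100.8 to 113.8) than in the controls (185.4 to 212.4).

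Of the other members Efnb2, Ephb4 and Pgf were called in the knockdown. Efnb2 was at 188.8, 189.9 and 192.6 CPM in shSCR and at 209.7, 193.6 and 203.7 in shPHGDH, and Ephb4 at 116.3, 120.6 and 119.6 against 129.6, 128.6 and 125.1. Both groups were apart for each gene, by log2 0.09 (SE 0.032, adjusted p = 0.0203) for Efnb2 and 0.10 (SE 0.033, adjusted p = 0.00909) for Ephb4. Pgf was low, at 1.984, 2.209 and 2.293 CPM in shSCR and at 3.475, 3.102 and 2.556 in shPHGDH (111 and 146 counts summed). Its log2 fold change was 0.46 (SE 0.187, adjusted p = 0.0349). Vegfb (log2 0.09, adjusted p = 0.155), Vegfc (log2 -0.10, adjusted p = 0.121) and Angpt2 (log2 -0.23, adjusted p = 0.418) did not pass. Vegfb was at 39.55 to 41.38 CPM in shSCR and 40.85 to 44.47 in shPHGDH, Vegfc at 40.6 to 42.48 and 37.4 to 41.05, and Angpt2 at 1.563 to 1.86 and 1.193 to 1.706, so these groups overlapped.

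In all, 6 of the 9 were called in the knockdown, 5 higher and 1 lower. The background was high: 59.7% of the 11568 genes tested were called, 30.1% higher and 29.6% lower. Groups did not overlap for 6 of the 9, against 63.2% of genes tested, so both shares lay near the background. The median log2 fold change was 0.09 over the 9 and -0.01 over all genes tested. The labels put 2 shSCR libraries on sequencing lane 5 and the other 4 libraries on lane 6. With lane in the model 3 members remained called, Vegfa (log2 0.95), Nrp2 (0.35) and Nrp1 (-0.82), and the same 3 passed on lane 6 alone; Pgf, Efnb2 and Ephb4 no longer passed. With scaling by library totals, Pgf (adjusted p = 0.0512), Efnb2 (0.193) and Ephb4 (0.105) also missed the threshold and Vegfc passed (log2 -0.14, adjusted p = 0.0333). Pgf missed it without shPHGDH replicate 1 (adjusted p = 0.172) or 2 (0.0699) and without shSCR replicate 1 (0.0962) or 2 (0.0611). Efnb2 missed it without shPHGDH replicate 1 (0.11) or 3 (0.0589) and without shSCR replicate 1 (0.0713). Over those 6 fits, each leaving out 1 library, Vegfa, Nrp1, Nrp2 and Ephb4 passed in every fit, Ephb4 with an adjusted p of up to 0.0431.

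Vegfc, Nrp1, Angpt2 and Efnb2 lie on mouse chromosome 8, whose genes were lower as a whole in shPHGDH. Nrp1 spans chr8:128358604-128503363 on the plus strand and Vegfc chr8:54077606-54187096 on the plus strand, in GENCODE vM21 on GRCm38. Angpt2 spans chr8:18690263-18741562 and Efnb2 chr8:8617434-8661242, both on the minus strand. The median log2 fold change of the 624 other tested genes of that chromosome was -0.25, with 434 called lower and 52 higher beside Nrp1. The median of the 50 nearest tested genes was -0.28 around Nrp1, -0.32 around Vegfc, -0.24 around Angpt2 and -0.27 around Efnb2. Minus the median of its neighbours, Nrp1 was at -0.51, Vegfc at 0.22, Efnb2 at 0.36 and Angpt2 at 0.01. Around the members on other chromosomes the medians ran from -0.07 (Nrp2, chr1:62703285-62818695) to 0.08 (Vegfb, chr19:6982473-6987651). It was 0.01 around Vegfa (chr17:46016993-46032369), -0.01 around Pgf (chr12:85166635-85177790) and 0.00 around Ephb4 (chr5:137350109-137378669). The part of the chromosome in these 4 changes was not tested.

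**Figure D2:**
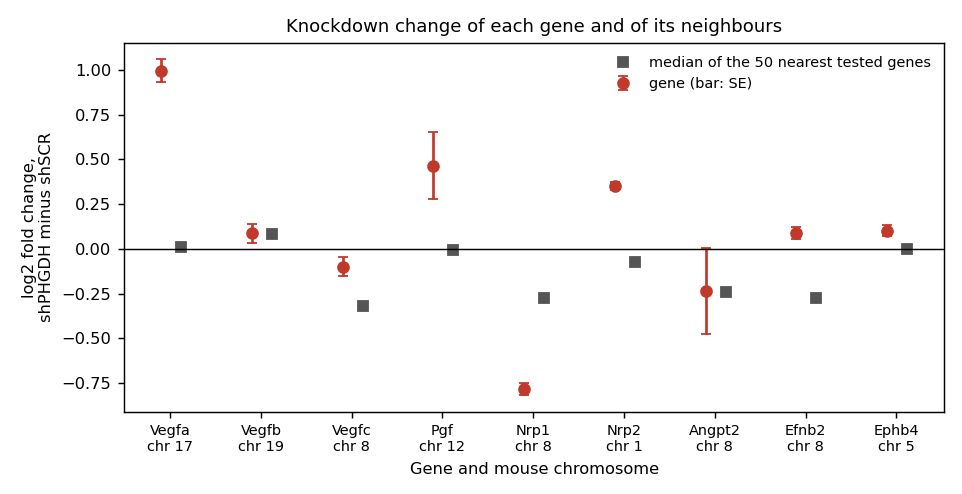
Log2 fold change (shPHGDH minus shSCR) of each gene (red circles, bars are SE, 3 libraries a group) and the median of its 50 nearest tested genes (grey squares). The neighbours' medians of the 4 chromosome 8 genes lie between -0.32 and -0.24, and those of the other 5 lie between -0.07 and 0.08.

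Of 58 other genes of these pathways in 6 lists, 38 could be tested in the knockdown, and 18 were higher and 7 lower (median log2 fold change 0.11 against -0.01 over all genes). That is 65.79% called, near the 59.7% of all genes tested. Among the neuropilin partners, the class 3 semaphorins and plexins, 5 of 11 were higher and 4 lower. Plxnd1, a plexin that serves as a semaphorin receptor, was higher (log2 0.92) and Plxna3 lower (-0.56). Of the other ephrins and Eph receptors 7 of 13 were higher and 1 lower, with Efnb1 at 0.79, Efna1 at 0.52 and Ephb3 at 0.47. Flt1, the receptor of VEGF-A, VEGF-B and PlGF, was higher (log2 0.76, 25.13 ± 2.38 CPM in shSCR and 42.95 ± 1.49 in shPHGDH, SD, n = 3 each, adjusted p = 5.12e-11, edgeR). Of the HIF regulators 2 of 7 were higher, and Egln3, a HIF prolyl hydroxylase, had a log2 fold change of 1.21. The VEGF-responsive list had 3 of 6 higher and 2 lower, among them Adamts1, a secreted protease, at -0.64. None of the 5 angiopoietin and Tie genes could be tested. The endothelial marker list summed to 63.37 to 69.98 CPM in shSCR and 94.33 to 96.44 in shPHGDH, with only 2 of its 12 genes, Eng and Egfl7, at 1 CPM or more in each library. The epithelial list summed to 4559 to 4686 CPM in shSCR and 4198 to 4244 in shPHGDH, with all 10 genes at 1 CPM or more. Within it Esrp1 was at 242.9 to 254.3 and 87.3 to 94.03 CPM, Cldn7 at 124.2 to 133.5 and 45.93 to 48.13, and Krt18 at 888.2 to 927.0 and 1309 to 1340. The fibroblast list summed to 6.84 to 8.137 and 10.18 to 11.75 CPM, and the leukocyte list to 9.126 to 10.68 and 13.58 to 15.59. The part of these markers in the results was not tested.

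In MDA-MB-231 the ligands VEGFA and VEGFC and the co-receptor NRP2 were lower in the libraries labelled PHGDH-overexpressing, and VEGFB, NRP1 and EPHB4 were higher. Control cells had 185.4, 212.4 and 190.7 CPM of VEGFA, and the labelled libraries had 113.8, 100.8 and 101.0. Every labelled library lay below every control (log2 -0.90, SE 0.067, adjusted p = 3.57e-10, edgeR). VEGFC was at 88.68, 101.8 and 99.72 CPM against 64.46, 66.18 and 56.05 (log2 -0.63, SE 0.074, adjusted p = 3.72e-07). VEGFB went the other way, at 36.62, 37.75 and 42.12 CPM against 60.33, 57.76 and 61.5 (log2 0.63, SE 0.072, adjusted p = 3.58e-07). The 3 VEGF genes thus had groups that did not overlap, 2 lower and 1 higher.

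The placental growth factor gene PGF had 6.838, 6.85 and 6.16 CPM in control cells, against 4.645, 4.663 and 5.453 in the labelled libraries (log2 -0.43, SE 0.137, adjusted p = 0.0136). It missed the threshold with DESeq2 (adjusted p = 0.0729) and without labelled replicate 1 (0.0604). NRP2 was at 17.26, 14.1 and 15.33 CPM against 8.877, 10.06 and 10.59 (log2 -0.66, SE 0.109, adjusted p = 3.43e-05). NRP1 was at 438.9, 411.3 and 402.1 CPM against 493.3, 492.2 and 476.4 (log2 0.22, SE 0.056, adjusted p = 0.00245). The 2 co-receptor genes therefore changed in opposite directions, NRP1 being much the more abundant. EPHB4 was at 66.4, 64.6 and 67.26 CPM against 85.42, 84.31 and 87.24 (log2 0.37, SE 0.062, adjusted p = 4.09e-05). Its ligand gene EFNB2, at 57.65 to 63.56 against 54.32 to 60.18 CPM, did not pass (log2 -0.08, adjusted p = 0.359). ANGPT2 was at 0.55 to 0.906 against 0.944 to 1.032 CPM, and its log2 fold change of 0.32 did not pass (adjusted p = 0.439).

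In this experiment 7 of the 9 were called, 3 higher and 4 lower, against 44.5% of the 17663 genes tested (21.6% higher, 22.9% lower). Groups did not overlap for 8 of the 9, against 52.5% of genes tested. Over all genes 3816 were higher and 4048 lower, and with scaling by library totals 3053 and 4900; 7 members were called with that scaling too. Of the 58 pathway genes 39 could be tested, and 17 were higher and 10 lower (69.23% called, median log2 0.15 against -0.01 over all genes). Of 12 neuropilin partners 7 were higher and 3 lower, with SEMA3B at 1.37, PLXNA4 at 0.99 and PLXND1 at 0.87. Of 8 HIF regulators 4 were higher and 1 lower, with EGLN3 at 1.09 and EPAS1, which encodes HIF-2α, at 0.84. Of 11 other ephrins and Eph receptors 4 were higher and 2 lower, with EPHA4 at -1.02. KDR, the VEGF-A receptor, was at -0.85, and ADAMTS1, in the VEGF-responsive list with 2 of 4 lower, at -3.05. Of 3 testable angiopoietin and Tie genes 2 were higher and 1 lower. The epithelial marker list summed to 1292 to 1323 CPM in the controls and 1937 to 2185 in the labelled libraries; its part in these results was not tested.

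Set side by side, the label contrasts gave Vegfa at 0.997 in the 4T1 knockdown and -0.90 in MDA-MB-231, Nrp1 at -0.78 and 0.22, Nrp2 at 0.35 and -0.66, and Pgf at 0.46 and -0.43. These 4 were called with opposite signs, and Ephb4 was called higher in both (0.10 and 0.37). In the knockdown, Pgf and Ephb4 did not pass with lane in the model. Of 13 alternative fits there, Pgf was called in 4 and Ephb4 in 10, against all 13 for Vegfa, Nrp1 and Nrp2. In MDA-MB-231, PGF was called in 9 of 11. PHGDH mRNA was lower in the second-named group of both contrasts (-2.999 and -1.61), and the differences between the experiments were not tested. The directions in MDA-MB-231 are in doubt, since PHGDH runs against the labels there and the reason was not tested. If the labels of that experiment were exchanged, each of its changes would keep its size and turn its sign, so that Vegfa, Nrp1, Nrp2 and Pgf would have the same sign in both experiments and Ephb4 opposite signs.

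Across the 3 lines of the co-culture set, Vegfa was higher in the tumour lines, and Pgf and Ephb4 were higher in Bend3. For these comparisons the libraries of a line, alone and co-cultured, were taken as its replicates, which puts any co-culture change into the spread. Vegfa was at 65.45 and 36.46 CPM in 4T1 (alone, then with Bend3) and at 269.4 and 125.5 in EMT6.5. In Bend3 it was at 15.88 alone, 18.58 with 4T1 and 20.91 with EMT6.5. No Bend3 library reached the lowest tumour library (log2 -2.44, SE 0.339, adjusted p = 0.000525, edgeR), and both EMT6.5 libraries lay above both 4T1 libraries (log2 1.95, SE 0.415, adjusted p = 0.0186). The order was EMT6.5, 4T1 and Bend3; the step between the tumour lines was not called without EMT6.5 alone (adjusted p = 0.15).

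Pgf was at 2.592 and 6.461 CPM in 4T1, at 7.999 and 6.508 in EMT6.5 and at 16.78, 47.45 and 42.55 in Bend3. Every Bend3 library lay above every tumour library (log2 2.63, SE 0.443, adjusted p = 0.00154), and the 2 tumour lines did not differ beyond their spread (adjusted p = 0.528). Ephb4 was at 9.073 and 47.07 CPM in 4T1, at 21.66 and 27.86 in EMT6.5 and at 68.04, 97.85 and 147.1 in Bend3. Bend3 was above both tumour lines (log2 1.99, SE 0.48, adjusted p = 0.00958), while the EMT6.5 values fell between the 2 values of 4T1. With a co-culture term added for each kind of cell, Pgf was no longer called (adjusted p = 0.06).

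**Figure D3:**
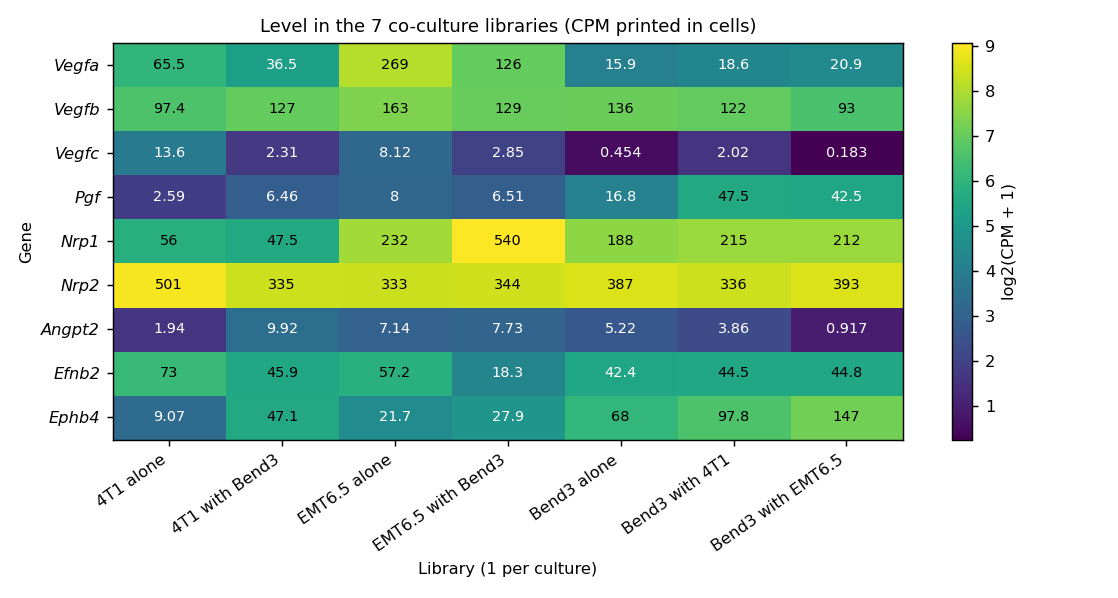
CPM of the 9 genes (rows) in the 7 co-culture libraries (columns, 1 library each), printed in each cell and coloured by log2(CPM + 1). Vegfa is at 36.46 to 269.4 in the tumour lines and at 15.88 to 20.91 in Bend3, and Pgf is at 16.78 to 47.45 in Bend3 and at 2.592 to 7.999 in the tumour lines.

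The co-receptors split the lines differently. Nrp1 was at 55.95 and 47.54 CPM in 4T1, at 231.6 and 539.6 in EMT6.5 and at 188.2, 215.4 and 211.8 in Bend3. EMT6.5 was above 4T1 (log2 2.90, SE 0.389, adjusted p = 0.00234), with 4T1 lowest and Bend3 between. Bend3 and the tumour lines together did not differ (log2 0.54, adjusted p = 0.151), except without EMT6.5 with Bend3 (log2 0.89, adjusted p = 0.0136). Nrp2 was even across lines, at 500.7 and 334.6 CPM in 4T1, 333.4 and 344.5 in EMT6.5 and 387.1, 335.7 and 393.4 in Bend3, and neither contrast passed (adjusted p = 0.51 and 0.962). Per kb of exon Nrp2 was above Nrp1 in 6 of the 7 libraries, by 1.19 to 7.395 times, and below it in EMT6.5 with Bend3, where the ratio was 0.528.

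Of the remaining members, Vegfb was at 97.42 and 127.4 CPM in 4T1, 163.3 and 128.9 in EMT6.5 and 136.1, 121.8 and 92.99 in Bend3, without a called difference. Per kb of exon it was the most abundant of the 4 ligands in every library, at 57.94 to 101.8 CPM per kb against 3.705 to 62.87 for Vegfa. Efnb2 was at 73.01 and 45.92 CPM in 4T1, 57.23 and 18.3 in EMT6.5 and 42.41, 44.51 and 44.75 in Bend3, and no line stood apart. Vegfc was at 13.61 and 2.308 CPM in 4T1 and 8.122 and 2.847 in EMT6.5. In Bend3 it had 2, 11 and 1 counts. Its lower level in Bend3 (log2 -2.85, SE 0.954, adjusted p = 0.0398) was called in 6 of 11 alternative fits, and the adjusted p reached 0.134. Angpt2, known as an endothelial product, was at 1.944 and 9.923 CPM in 4T1, 7.138 and 7.729 in EMT6.5 and only 5.216, 3.862 and 0.917 in Bend3, and was not called (log2 -0.999, adjusted p = 0.299).

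Between Bend3 and the tumour lines 4 of the 9 were called, 2 higher and 2 lower, against 40.4% of the 13092 genes tested (21.8% higher, 18.5% lower); with co-culture terms in the model 2 were called. Between EMT6.5 and 4T1, 2 of the 9 were called, both higher, against 11.1% of genes (5.54% higher, 5.52% lower), and 1 without EMT6.5 alone. Of the 48 testable pathway genes 24 were higher and 12 lower in Bend3 (75.0% called, median log2 0.97 against -0.03 over all genes). Those higher included the endothelial receptors Tie1 (7.66), Kdr (6.497) and Flt4 (5.92), the phosphatase Ptprb (6.83), the plexin Plxna2 (7.51), the nitric oxide synthase Nos3 (7.26) and Egln3 (5.78). Of 11 other ephrins and Eph receptors 7 were lower and 2 higher, with Ephb2 at -7.37. Between EMT6.5 and 4T1, 5 were higher and 5 lower (20.83% called). Sema3a, a repellent ligand of Nrp1, was higher in EMT6.5 (7.57), as were the ligand gene Vegfd (5.67), Plxnd1 (3.15) and Sema3b (2.76). Egln3 (-5.64), Epha1 (-3.94), Epha4 (-3.60) and Flt1 (-2.52) were lower.

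After co-culture with Bend3, Vegfa, Vegfc and Efnb2 were lower in both tumour lines, each with 1 library against 1, so the ratios have no replicate check. They are given with 95% exact intervals that cover counting error only. Separation by FACS is described for the co-cultures only. If the lines grown alone were not sorted, co-culture and sorting cannot be told apart in these ratios or in those of Bend3. Vegfa went from 65.45 to 36.46 CPM in 4T1, a ratio of 0.557 (interval 0.457 to 0.677), and from 269.4 to 125.5 in EMT6.5, a ratio of 0.466 (0.425 to 0.510). Efnb2 went from 73.01 to 45.92 CPM in 4T1, a ratio of 0.629 (0.525 to 0.752), and from 57.23 to 18.3 in EMT6.5, a ratio of 0.320 (0.252 to 0.402). Vegfc went from 63 to 10 counts in 4T1, a CPM ratio of 0.170 (0.0776 to 0.333), and from 66 to 14 in EMT6.5, a ratio of 0.351 (0.182 to 0.631). The upper bounds of all 6 ratios lie below 1. Of the 9 members, 4 had intervals below 1 and 4 above 1 in 4T1, and 4 below and 2 above in EMT6.5. The share of all genes with such intervals was not computed, so these bounds have no background to be weighed against.

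Ephb4 was also above 1 in both tumour lines, and the other 5 members had no ratio whose interval left out 1 on the same side in both. Ephb4 had 42 counts in 4T1 alone and 204 with Bend3, a ratio of 5.19 (3.71 to 7.42), and a ratio of 1.29 (1.02 to 1.62) in EMT6.5. Angpt2 had 9 and 43 counts in 4T1, a ratio of 5.10 (2.45 to 11.9), and a ratio of 1.08 (0.700 to 1.66) in EMT6.5. Pgf had 12 and 28 counts in 4T1, a ratio of 2.49 (1.23 to 5.38), and a ratio of 0.814 (0.516 to 1.26) in EMT6.5. Nrp1 went from 231.6 to 539.6 CPM in EMT6.5, a ratio of 2.33 (2.20 to 2.47). In 4T1 its ratio was 0.850 (0.704 to 1.02), and with RLE scaling or library totals the interval ended below 1 (0.996 and 0.967). Nrp2 had a ratio of 0.668 (0.625 to 0.714) in 4T1 and 1.03 (0.972 to 1.10) in EMT6.5, and Vegfb 1.31 (1.15 to 1.48) and 0.790 (0.717 to 0.869).

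In 4T1, 3 of the 9 were at least 2-fold higher (Pgf, Angpt2 and Ephb4) and 1 lower (Vegfc), against 14.5% and 11% of the 10132 genes whose mean reached 5 CPM, 25.5% in all; Pgf itself had a mean under that minimum. In EMT6.5, 1 was at least 2-fold higher (Nrp1) and 3 lower (Vegfa, Vegfc and Efnb2), against 5.04% and 6.6%, 11.6% in all. Bend3 RNA in the sorted tumour libraries, estimated from genes nearly silent in the host, was 1.25% in 4T1 and 0.576% in EMT6.5. With that share subtracted the 4T1 ratios were 5.12 for Ephb4, 2.29 for Pgf and 5.14 for Angpt2. The EMT6.5 ratio of Ephb4, with a lower bound of only 1.021, went from 1.286 to 1.255, and no interval was computed after subtraction. The endothelial marker sum was 98.94 CPM in 4T1 alone and 222.7 with Bend3. What both tumour lines share was also fitted with a co-culture term (edgeR, 2 residual degrees of freedom). It called 0 of the 9, with 3 at an unadjusted p under 0.05: Vegfa (log2 -0.98, adjusted p = 0.211), Efnb2 (-1.15, adjusted p = 0.251) and Ephb4 (1.31, adjusted p = 0.355). DESeq2 also called 0, with 3 at an unadjusted p under 0.05, and over all genes edgeR called 0.0306% (0.0229% higher, 0.00764% lower).

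Bend3 cells sorted from either co-culture had more Pgf and Ephb4 than Bend3 alone. Pgf went from 16.78 CPM alone to 47.45 with 4T1, a ratio of 2.83 (2.18 to 3.71), and to 42.55 with EMT6.5, a ratio of 2.54 (1.94 to 3.34). Ephb4 went from 68.04 to 97.85 and 147.1 CPM, ratios of 1.44 (1.25 to 1.66) and 2.16 (1.89 to 2.48). Both comparisons use the same Bend3 library grown alone, so they are not independent. The tumour partners held less of both genes than these Bend3 libraries did (6.461 and 6.508 CPM of Pgf, 47.07 and 27.86 of Ephb4), and tumour RNA in the sorted Bend3 was estimated at 2.45% and 1.53%. With it subtracted the ratios were 2.89 and 2.57 for Pgf and 1.457 and 2.189 for Ephb4. The part of tumour RNA in these ratios was not tested.

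**Figure D4:**
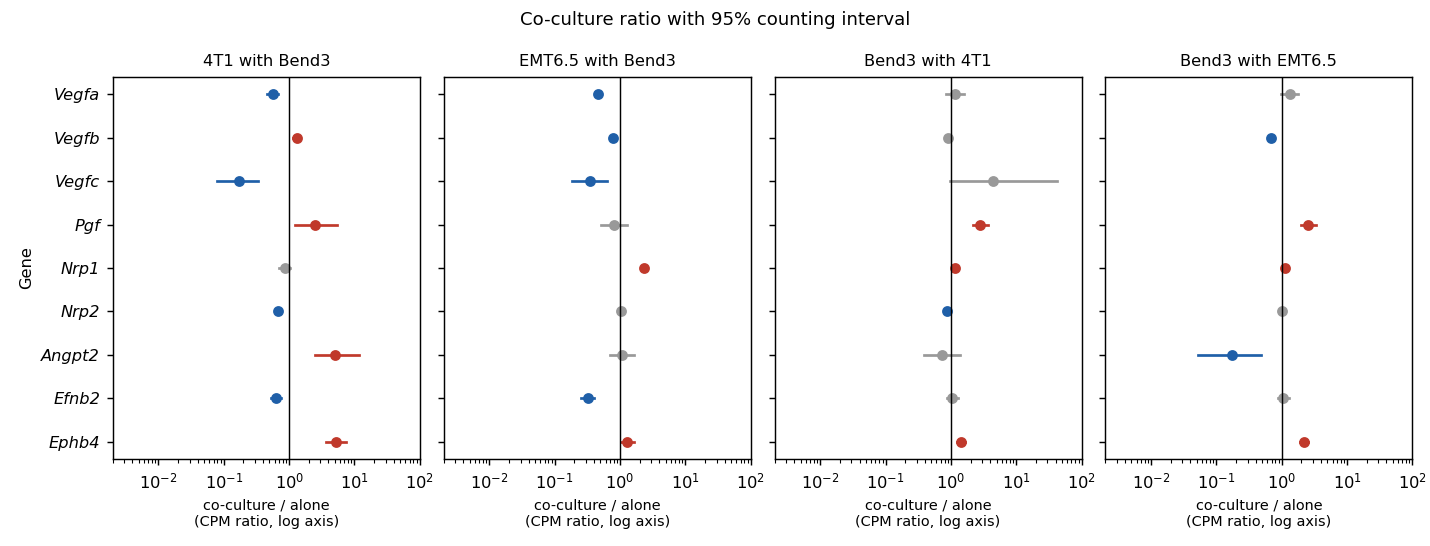
CPM ratio of each gene, co-culture over alone, on a log axis for the 2 tumour lines with Bend3 and for Bend3 with each partner; lines are 95% counting intervals of 1 library against 1. Red lies above 1, blue below 1 and grey spans 1, and Vegfc is left out where both libraries had under 3 counts; Pgf (2.83 and 2.54) and Ephb4 (1.44 and 2.16) are red in both Bend3 panels, and Vegfa, Vegfc and Efnb2 are blue in both tumour panels.

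Angpt2 had 23 counts in Bend3 alone, 21 with 4T1 and 5 with EMT6.5, ratios of 0.741 (0.390 to 1.40) and 0.176 (0.0522 to 0.473). Vegfb was lower with EMT6.5 (0.683, 0.606 to 0.770), and with 4T1 its interval reached just past 1 (0.895, 0.800 to 1.001). Nrp1 differed little (1.14, 1.05 to 1.25, and 1.13, 1.03 to 1.23), as did Nrp2 (0.867, 0.811 to 0.927, and 1.02, 0.953 to 1.08). The intervals of Vegfa (ratios 1.17 and 1.32) and Efnb2 (1.05 and 1.06) held 1 in both. With 4T1, Pgf and Vegfc were at least 2-fold higher, Vegfc on 2 and 11 counts (ratio 4.46, 0.974 to 41.4) and under the 5 CPM minimum, and 0 were as much lower, against 2.91% and 2% of genes (4.9% in all). With EMT6.5, 2 of the 9, Pgf and Ephb4, were at least 2-fold higher and 1, Angpt2, lower, though under the 5 CPM minimum, against 2.34% and 2.08% (4.42% in all). Vegfc had 2 counts and 1 there, within the 3 counts that a 0 allows, so no ratio is given. The co-culture term of Bend3 in the edgeR fit called 0 of the 9 and 0% of all genes. Pgf alone was at an unadjusted p under 0.05 (log2 1.42, adjusted p = 1.0), and DESeq2 called 0 of the 9, with 0 at an unadjusted p under 0.05.

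Of the 58 pathway genes, 36 were at the 5 CPM minimum in 4T1, with 16 at least 2-fold higher and 5 lower after co-culture, against 14.5% and 11% of all genes at that minimum. In EMT6.5 there were 35, with 5 higher and 5 lower, against 5.04% and 6.6%. Partner RNA was not subtracted here. The 16 higher in 4T1 were Flt1, Kdr, Ptprb, Sema3b, Sema3f, Plxna3, Plxna4, Plxnd1, Efna4, Efnb1, Ephb6, Egln3, Egr3, Nr4a1, Nr4a2 and Dll4. Kdr went from 14.91 to 30.23 CPM and Ptprb from 3.888 to 12.92. Bend3 with 4T1 held 2397 and 853.4 CPM of them, and its RNA share in 4T1 was 1.25%. Plxna3 went from 7.777 to 33.23 CPM and Egr3 from 1.728 to 55.84, and Bend3 with 4T1 held 0.736 and 2.391. The 5 higher in EMT6.5 were Angpt1, Ptprb, Nr4a1, Nr4a2 and Nos3. Ptprb went from 3.569 to 9.762 CPM and Nos3 from 4.43 to 10.17. Bend3 with EMT6.5 held 1044 and 998.5 CPM of them, at a share of 0.576%. Angpt1 went from 9.476 to 55.73 CPM, and Bend3 with EMT6.5 held 0.550. These genes were named after their values were seen, and the part of Bend3 RNA in their ratios was not tested. Flt1, named after its values were seen, went from 90.94 to 279.2 CPM in 4T1, a ratio of 3.07 (2.75 to 3.44), and from 35.2 to 29.29 in EMT6.5, a ratio of 0.832 (0.676 to 1.02); Bend3 with 4T1 held 351.5 CPM. In Bend3 1 of 35 was at least 2-fold higher with each partner and 0 lower. The shares of all genes at that minimum were 2.91% higher and 2% lower with 4T1, and 2.34% and 2.08% with EMT6.5. The higher gene was the nuclear receptor gene Nr4a2 in both, also named after its values were seen. It was higher in both co-cultured tumour lines too (ratios 4.64 in 4T1 and 2.48 in EMT6.5).

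Across the 7 co-culture libraries the level pattern most like that of Vegfa among 10749 genes was that of Ptgs2, which encodes cyclooxygenase 2 (Pearson r = 0.995), followed by Osgin2 (0.993). For Pgf these were Rsbn1l (0.985) and Cd200 (0.982), for Ephb4 Nfkbiz (0.992) and Cnp (0.991), and for Nrp1 Fcgrt (0.984) and Gm44694 (0.971). For Vegfb they were Slx4 (0.991) and Orc1 (0.979), for Nrp2 Slc25a5 (0.986) and Hnrnpdl (0.978), for Angpt2 Acd (0.979) and Tsc2 (0.958), and for Efnb2 Rfesd (0.958) and Nprl3 (0.955). Among the members themselves Pgf and Ephb4 were the most alike (0.929), then Vegfb and Angpt2 (0.834). The genes named for each member are the 2 with the highest r among 10749, so a high r was built into their choice. All r values describe 7 libraries that share 3 cell lines and 1 scaling. Vegfc was under the minimum of 5 CPM.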

How the data were processed

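Per the submitters' processing notes, the tools were HTSeq, whose version is missing, HISAT2 2.1.0 and Trim Galore 0.5.0, with GRCm38 as build; for the human libraries the build, and for all the annotation and counting settings, are not given in the sources used here. Deposited tables hold raw gene counts made by the authors, without molecular identifiers; 10 library columns of the knockdown table matched no sample and were not used. Members and lists were chosen with earlier results of these data known. Counts were fitted across all genes with edgeR 4.0.16 in R 4.3.3 (TMM, default low-count filter, quasi-likelihood F-test, Benjamini-Hochberg, adjusted p under 0.05), tested on simulated data. The SE is the log2 fold change over the square root of F. DESeq2 1.42.0, other scalings, no filter, lane and leaving out libraries were alternatives. Single-library ratios used CPM with 95% exact conditional binomial intervals; a count of 0 allows up to 3 counts. Partner RNA came from genes at 50 CPM or more in the partner and 0.5 or less in the host. Likeness used log2 CPM with a prior count of 2. Exon lengths are unions of GENCODE vM21 exons. Beside the 9 members, at most 8 called pathway genes whose mean reached 5 CPM were named per comparison by largest change. The MDA-MB-231 columns named SCR were read as controls. Exons of Ephb4 overlap Zan on the opposite strand by 33 bases, and those of Nrp1 overlap Mir1903 by 80 bases.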

Additional observations from a re-analysis of the deposited data

Results flagged for a closer look

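Vegfb moved in opposite directions in the co-cultured tumour lines. Its CPM ratio was 1.31 in 4T1 (1.307, interval 1.15 to 1.48) and 0.790 in EMT6.5 (interval 0.717 to 0.869), so both counting intervals leave out 1 on opposite sides. With 1 library per culture the difference between the lines was not tested.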

How the results depend on the processing

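Leaving out 1 library gave 4 to 6 called members (knockdown), 6 to 7 (MDA-MB-231), 3 to 5 between Bend3 and the tumour lines and 1 to 2 between EMT6.5 and 4T1. Over all genes the first 3 of these called 6321 to 6617 (6905 in the main fit), 6597 to 8108 (7864) and 3853 to 6264 (5285). Called members numbered 3 in the knockdown with lane in the model or on lane 6 only, and 2 between Bend3 and the tumour lines with co-culture terms. The counts over all genes of the 2 lane fits are not given here, so the loss of members there has no background. With the replicate number as a block 5 members were called in the knockdown and 7 in MDA-MB-231. Same-numbered libraries deviated together at correlations of only -0.0773 to 0.0003 and -0.0552 to 0.0821, and not every library correlated best with its own number. With 3 libraries a group this check cannot decide whether the numbers pair cultures. In the knockdown the block cost the call of Pgf. DESeq2 called 5 members there and 6 in MDA-MB-231, with 5619 and 6667 genes called in all. Between Bend3 and the tumour lines the sign turned for Vegfb (0.096) and Angpt2 (0.315) with co-culture terms, for Nrp2 (0.161) and Efnb2 (0.088) without 4T1 alone, for Nrp2 (0.011) without Bend3 with 4T1 and for Efnb2 (0.38) without EMT6.5 alone. Between EMT6.5 and 4T1 it turned for Ephb4 with co-culture terms (0.19), without 4T1 with Bend3 (1.409) and without EMT6.5 alone (0.011), and for Vegfc (1.278), Nrp2 (0.045) and Angpt2 (-0.391) without 4T1 alone. In the tumour co-culture term it turned for Vegfb with library totals (-0.028) and no filter (-0.018). Over the left-out libraries Nrp2 ran down to -0.158 and Efnb2 to -0.433 in the former, and Vegfc to -1.506, Nrp2 to -0.595, Ephb4 to -0.906 and Angpt2 up to 1.889 in the latter. None of the turned values was called, and the cause was not tested. Over all genes, 5285 calls between Bend3 and the tumour lines became 3006 with co-culture terms. The 1448 between EMT6.5 and 4T1 became 2446 with no filter and 591 to 2768 on leaving out a library. The 4 of the tumour term became 287 with DESeq2, 22 with library totals and 20 with no filter, and the 0 of the Bend3 term became 1 with DESeq2. Library totals moved the median of all genes between Bend3 and the tumour lines from -0.028 to -0.201. All 105 recomputed co-culture ratios, under other scalings and with partner RNA subtracted, stayed within their counting interval. Depth limits Pgf and Angpt2 in the knockdown, which rest on few counts. In co-culture it likewise limits Vegfc, Angpt2 and, in 4T1, Pgf (12 counts alone and 28 with Bend3).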

Other observations

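The knockdown and co-culture tables were made and scaled separately, so levels across them are not matched. Ratios between genes within a library carry no scaling, but they can still differ with library preparation, alignment and counting. In the co-culture libraries 48.193% to 55.314% was set aside as not uniquely aligned, a share that is not known for the knockdown. Differences in these ratios between the 2 experiments were not tested. Per kb of exon the ratio of Nrp2 to Nrp1 was 1.57 to 1.66 in the shSCR libraries of 4T1, 3.51 to 3.53 in shPHGDH and 7.395 in 4T1 grown alone in the co-culture set. The ratio of Ephb4 to Efnb2 was 0.910 to 0.938 in shSCR and 0.184 in 4T1 alone. After co-culture with Bend3 this ratio was 1.51 in 4T1, and in EMT6.5 it was 0.559 alone and 2.25 with Bend3. In Bend3 it was 2.37 alone, 3.25 with 4T1 and 4.86 with EMT6.5, so receptor over ligand was higher in every co-culture library than in the same line alone. Each comparison is 1 library against 1, without an interval, and both of Bend3 share the library grown alone. The limit on sorting given above holds here too. Phgdh itself was at 163.4 to 172.5 CPM in shSCR and at 14.04 in 4T1 alone, with 65 counts there.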
